A study of Homo sapiens with 8 samples.

Results

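The genes described here are interferon-stimulated genes outside the IFIT family, a list of 44 human genes that respond to interferon. They were followed in IGROV-1, an established line of human ovarian carcinoma cells, passaged inside the abdomen of mice. Members were found by the platform's gene symbol or an older alias, and a probe was kept where its detection p-value was under 0.05 on at least 4 of 8 arrays. In all, 39 of the 44 genes had a kept probe, of 11023 named genes measured, and they held 49 of 18184 kept probes. For USP18 no probe is named here, and the probes of MX2, CMPK2, SAMD9L and IFI44L were above background on at most 1 of 8 arrays each.

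All mice carried IGROV-1 ascites, raised from passaged tumor cells. The saline group received saline and the CpG-ODN group received ODN1826, a phosphorothioate oligonucleotide with unmethylated CpG motifs that Toll-like receptor 9 recognises, at 20 µg per mouse. Both were given into the peritoneal cavity from day 10 to 11, and tumor cells attached to the peritoneal wall were taken 24 hours after the last dose. The labels name 4 mice per group and a schedule of 3 consecutive days or 1 administration, with no array tied to a mouse or a schedule. Each group had 4 arrays, each a separate 1-colour Illumina bead array. The line was kept by serial passage from mouse to mouse, so mouse cells could be present in what was collected, while the arrays are made for human transcripts.

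Type I interferons bind a receptor whose kinases activate transcription factors, and a complex that holds IRF9 then binds the interferon-stimulated response element of its target genes. The targets include cytosolic RNA sensors, enzymes that degrade or edit viral RNA, membrane proteins that block viral entry or exit, and the ubiquitin-like protein ISG15 with the enzymes that attach it. In carcinoma cells many of these genes are expressed without infection and are read as an interferon signature.

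With CpG-ODN, 11 of the 39 measured genes fell and 3 rose. RSAD2, the antiviral enzyme viperin, was 1.75-fold higher, and the ISG15 ligase HERC5 and the ISG15-conjugating enzyme UBE2L6 were 1.45-fold and 1.39-fold higher. Those that fell included the RNA sensors DDX58, IFIH1 and DDX60, the tetherin gene BST2, and SAMD9, SP100, EPSTI1, PLSCR1 and LAMP3. Signature genes such as ISG15, MX1, IFI6, IFI27 and the IFITM family did not pass. A change is the log2 fold change of CpG-ODN over saline in limma, with its standard error (SE), and a gene is called where the p-value adjusted by Benjamini-Hochberg over all kept probes is under 0.05. Where a gene had several kept probes, the brightest one on average stands for it.

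These counts sat in a broad difference between the groups. The members called made up 35.9% of those measured, where 29.2% of all named genes were called. Of the members 28.2% fell, beside 16.3% of all genes, and 7.69% rose, beside 12.9% of all genes. The median log2 fold change was -0.14 over the members and -0.007 over all genes, with 27 members below 0 and 12 above. Of the 39 members, 21 lay inside the interquartile range of all genes (-0.31 to 0.26), 14 below it and 4 above. The groups did not overlap at 14 members (35.9%), beside 32.8% of all genes. Each array was also scaled by the median of all probes in place of quantile normalization. Then 12 members fell and 1 rose, while 1918 of the 11023 named genes fell and 486 rose. The median of all genes moved to -0.13 and that of the members to -0.32. Scaling by the kept probes, an alternative chosen after seeing the data, gave 10 lower and 3 higher, beside 1554 and 1824 of all genes. The median was then 0.07 over all genes and -0.12 over the members. Relative to all genes, the members' median was thus lower under each scaling.

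**Figure D1:**
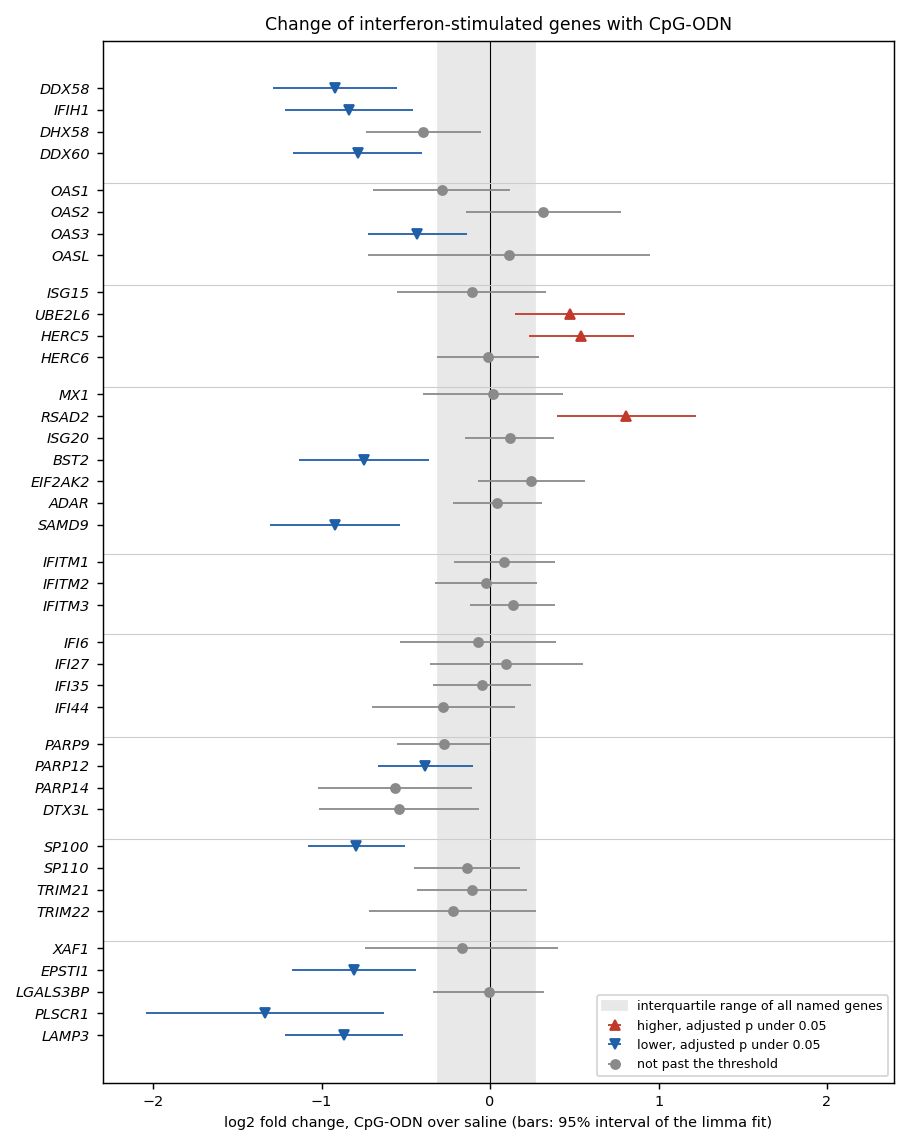
The log2 fold change of each of the 39 measured genes (x axis) by gene (y axis, grouped by role), with the 95% interval of the limma fit as bars. The shaded band is the interquartile range of all named genes, and the 14 called genes, 11 lower and 3 higher, are shown as triangles.

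The deposited values of mean raw signal spanned 876 to 1079 on the saline arrays and 806 to 1073 on those with CpG-ODN. The number of probes above background spanned 18784 to 20114 for saline and 18425 to 18570 for CpG-ODN, so these ranges did not overlap. Of the 39 members, 37 to 39 were above background on a saline array and 34 to 36 on a CpG-ODN array. The part of this difference in the lower calls was not tested. Of the 11 genes that fell, 4 were below background on some CpG-ODN array, and the sizes of such changes depend on the background correction. Some genes detected on all 8 arrays also changed less with no background correction, SAMD9 by -0.47 in place of -0.92 and DDX60 by -0.51 in place of -0.79. DDX58 and LAMP3 were detected on no CpG-ODN array, so they passed the detection rule through saline alone, and the other 9 genes that fell were detected on at least 1 CpG-ODN array. With only probes detected on all 8 arrays tested, 8 of 30 members fell and 2 rose. Of 9553 named genes in that setting 1710 fell and 1491 rose, together 33.5%. Of 13 epithelial and ovarian carcinoma markers 11 were measured, among them EPCAM, PAX8, FOLR1 and the keratins KRT7, KRT8 and KRT18, each above background on all 8 arrays. In such bulk samples fewer cells of a type and less RNA per cell cannot be told apart.

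Most members with a promoter window held a match to the core of the response element. The RefSeq promoter windows (GRCh38.p14, 250 bases before to 50 after the gene's start) covered 36 of the 44 genes, and 23 of them (63.9%) held its core, GAAA, any pair of bases (NN) and GAAA again, on either strand. The 95% Wilson interval of this share was 47.6% to 77.5%, beside 3.65% of all 27305 promoter windows. The core was found in 8 of 10 members that fell, in 1 of 3 that rose and in 13 of 20 that did not pass. The gamma-activated site TTCNNNGAA, searched in the same way, stood in 9 of 36 (25%) and in 7.88% of all windows. It was found in 4 of 10 that fell, 0 of 3 that rose and 5 of 20 that did not pass. A match is a description of letters in this window, not a measured binding site.

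Full windows are shown for a gene that rose and for RNA sensors that fell, read 5′ to 3′ in the direction of the gene, with the cores in capitals, merged where they overlap. HERC5 lies at chr4:88456869-88457168 (plus strand), DDX60 at chr4:168318703-168319002 (minus strand) and IFIH1 at chr2:162318635-162318934 (minus strand).
HERC5: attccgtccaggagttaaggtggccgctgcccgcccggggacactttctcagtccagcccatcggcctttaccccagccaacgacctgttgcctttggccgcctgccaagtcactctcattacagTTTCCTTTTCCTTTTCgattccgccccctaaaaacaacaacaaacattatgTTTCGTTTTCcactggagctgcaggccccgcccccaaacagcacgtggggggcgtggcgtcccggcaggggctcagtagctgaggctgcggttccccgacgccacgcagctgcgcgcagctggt
DDX60: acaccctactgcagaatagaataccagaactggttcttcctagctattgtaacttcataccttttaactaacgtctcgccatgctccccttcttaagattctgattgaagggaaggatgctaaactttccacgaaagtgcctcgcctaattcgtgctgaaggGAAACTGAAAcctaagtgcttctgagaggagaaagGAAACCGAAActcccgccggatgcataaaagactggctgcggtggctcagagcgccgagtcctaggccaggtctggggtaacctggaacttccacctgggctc
IFIH1: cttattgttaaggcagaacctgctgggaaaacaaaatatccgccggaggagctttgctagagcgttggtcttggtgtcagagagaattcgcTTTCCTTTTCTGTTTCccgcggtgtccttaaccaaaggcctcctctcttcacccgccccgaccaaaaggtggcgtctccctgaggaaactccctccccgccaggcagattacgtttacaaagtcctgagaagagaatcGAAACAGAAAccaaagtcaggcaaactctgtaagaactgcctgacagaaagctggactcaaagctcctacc

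To set called and uncalled members side by side, 30 bases round the core nearest the gene's start are shown for more genes, on the same build and in the direction of the gene. OAS3, BST2, SAMD9, PARP12, EPSTI1 and PLSCR1 fell, whereas ISG15, MX1 and IFITM3 did not pass. The core of OAS3 begins 12 bases before the start, that of EPSTI1 50 bases and that of SAMD9 136 bases, and that of MX1 begins 11 bases after it. The core of PARP12 is on the other strand, so it reads as TTTC, NN and TTTC. Capitals here mark only the core nearest the start. In BST2 and ISG15 another core overlaps it and begins in the lower-case letters just before.
OAS3 (chr12:112938452-112938481, plus strand): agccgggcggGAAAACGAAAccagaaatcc
BST2 (chr19:17405735-17405764, minus strand): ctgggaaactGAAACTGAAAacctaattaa
SAMD9 (chr7:93118096-93118125, minus strand): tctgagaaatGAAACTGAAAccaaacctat
PARP12 (chr7:140062942-140062971, minus strand): ccggggccgcTTTCGGTTTCgtttcccgcc
EPSTI1 (chr13:42992272-42992301, minus strand): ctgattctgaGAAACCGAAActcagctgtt
PLSCR1 (chr3:146544667-146544696, minus strand): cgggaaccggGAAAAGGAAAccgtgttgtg
ISG15 (chr1:1013380-1013409, plus strand): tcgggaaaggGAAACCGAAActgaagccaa
MX1 (chr21:41420559-41420588, plus strand): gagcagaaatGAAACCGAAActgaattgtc
IFITM3 (chr11:320876-320905, minus strand): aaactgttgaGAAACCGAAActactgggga
EPSTI1, ISG15, MX1 and IFITM3 carry the same letters in capitals, and so does the core of DDX60 nearest its start. Of these genes DDX60 and EPSTI1 fell, and ISG15, MX1 and IFITM3 did not pass. Whether the letters of the core differ between called and uncalled genes was not tested.

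Among the RIG-I-like sensors and related helicases, 3 of 4 fell and 0 rose, and for 1 of the 3, DDX58, only a bound can be given. IFIH1, which encodes the double-stranded RNA sensor MDA5, had log2 levels of 9.04, 9.14, 8.98 and 9.27 in saline replicates 1 to 4. With CpG-ODN the levels were 7.97, 8.25, 8.75 and 8.10, a change of -0.84 ± 0.17 (SE, adjusted p = 0.00549). Every CpG-ODN array lay below every saline array, and CpG-ODN replicate 3 came nearest. DDX60, a helicase that takes part in RNA sensing, stood at 8.41, 9.08, 8.63 and 8.70 in saline and at 8.02, 7.79, 8.20 and 7.67 with CpG-ODN. It fell by a log2 change of -0.79 ± 0.17 (SE, adjusted p = 0.00777) with no overlap. DDX58, which encodes the sensor RIG-I and is named RIGI in the current annotation, was detected on 4 of 4 saline arrays, at 6.13, 6.92, 6.61 and 6.68. With CpG-ODN it stood at 5.70, 5.74, 5.53 and 5.69, on no array well above background, so it passed the detection rule only through saline. The bound sets the saline mean against a floor, which on each CpG-ODN array is the lowest signal of a detected probe or the gene's own signal if that is higher. By it DDX58 was at least 1.74-fold lower on the background-corrected scale, a point estimate that leaves out sampling error. The limma fit without this floor gave adjusted p = 0.00286 and a 95% interval of the log2 change from -1.29 to -0.55. With no background correction the log2 change of DDX58 was -0.30. DHX58, the regulator LGP2 of the same family, stood at -0.40 ± 0.15 and did not pass (adjusted p = 0.0822).

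The OAS family encodes synthetases of 2-5A, the activator of the nuclease RNase L, and OASL, a relative without that activity. Here 1 of 4 genes fell and 0 rose. OAS3 stood at 9.58, 9.89, 9.49 and 9.61 in saline and at 9.23, 9.01, 9.36 and 9.22 with CpG-ODN, a change of -0.43 ± 0.13 (SE, adjusted p = 0.0349). The groups did not overlap, but the call was lost without any 1 of saline replicates 1, 2 and 4 or CpG-ODN replicates 1, 2 and 4, with an adjusted p up to 0.0951. The dimmer probe of OAS3 stood at -0.53 (adjusted p = 0.168). OAS1 had 3 kept probes, at -0.29, -0.66 and -0.50, which did not pass (adjusted p = 0.28, 0.123 and 0.13). OAS1 passed without CpG-ODN replicate 3 (adjusted p = 0.0427), and so did OAS2 (adjusted p = 0.0359), in the other direction. OAS2 was detected in 1 of 4 saline samples and in 3 of 4 treated ones, with a change of 0.32 ± 0.21 (SE, adjusted p = 0.297). OASL had the widest spread within a group of all 39 members, with a within-group SD of 0.68, and a change of 0.11 with a 95% interval from -0.72 to 0.95.

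ISG15 is a ubiquitin-like protein, UBE2L6 its conjugating enzyme and HERC5 its main ligase in human cells. The conjugation genes had 2 higher, 0 lower and 2 not called of 4 measured. HERC5 stood at 9.42, 8.98, 9.04 and 8.83 in saline and at 9.52, 9.63, 9.67 and 9.62 with CpG-ODN. The 4 CpG-ODN arrays lay close together and above all saline arrays, and the change was 0.54 ± 0.14 (SE, adjusted p = 0.0173). This call was lost with median scaling over all probes (adjusted p = 0.298). UBE2L6 stood at 6.88, 6.88, 7.32 and 7.36 in saline and at 7.50, 7.71, 7.62 and 7.51 with CpG-ODN, a change of 0.47 ± 0.15 (SE, adjusted p = 0.0364). The saline arrays split into a lower and a higher pair, and the call was lost in 13 of 20 alternatives, among them each of 6 arrays left out, with an adjusted p up to 0.0984 there. ISG15 itself stood at -0.11 ± 0.20 with a 95% interval from -0.55 to 0.33. HERC6, the neighbour and relative of HERC5, stood at -0.012 with an interval from -0.31 to 0.29.

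Direct antiviral effectors moved in both directions, with 1 higher and 2 lower of 7 measured. RSAD2 stood at 5.75, 5.61, 6.15 and 5.90 in saline, where 3 of 4 arrays were above background, and at 6.91, 6.83, 6.75 and 6.16 with CpG-ODN. The groups only just separated, at saline replicate 3 and CpG-ODN replicate 4, and the change was 0.81 ± 0.19 (SE, adjusted p = 0.01). BST2, which encodes tetherin, a membrane protein that holds budding virus at the cell surface, stood at 12.24, 12.36, 12.45 and 12.70 in saline. With CpG-ODN it stood at 11.98, 11.65, 11.26 and 11.86, a change of -0.75 ± 0.17 (SE, adjusted p = 0.0101). SAMD9, a restriction factor of poxviruses, stood at 7.78, 7.87, 8.19 and 8.19 in saline and at 6.93, 6.86, 7.53 and 7.02 with CpG-ODN. It fell by a log2 change of -0.92 ± 0.17 (SE, adjusted p = 0.00357), and the groups of BST2 and SAMD9 did not overlap. The dynamin-like GTPase gene MX1 stood at 0.017, with an interval from -0.40 to 0.43. The exonuclease gene ISG20, the RNA-activated kinase gene EIF2AK2 and the RNA-editing gene ADAR stood at 0.12, 0.24 and 0.043.

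**Figure D2:**
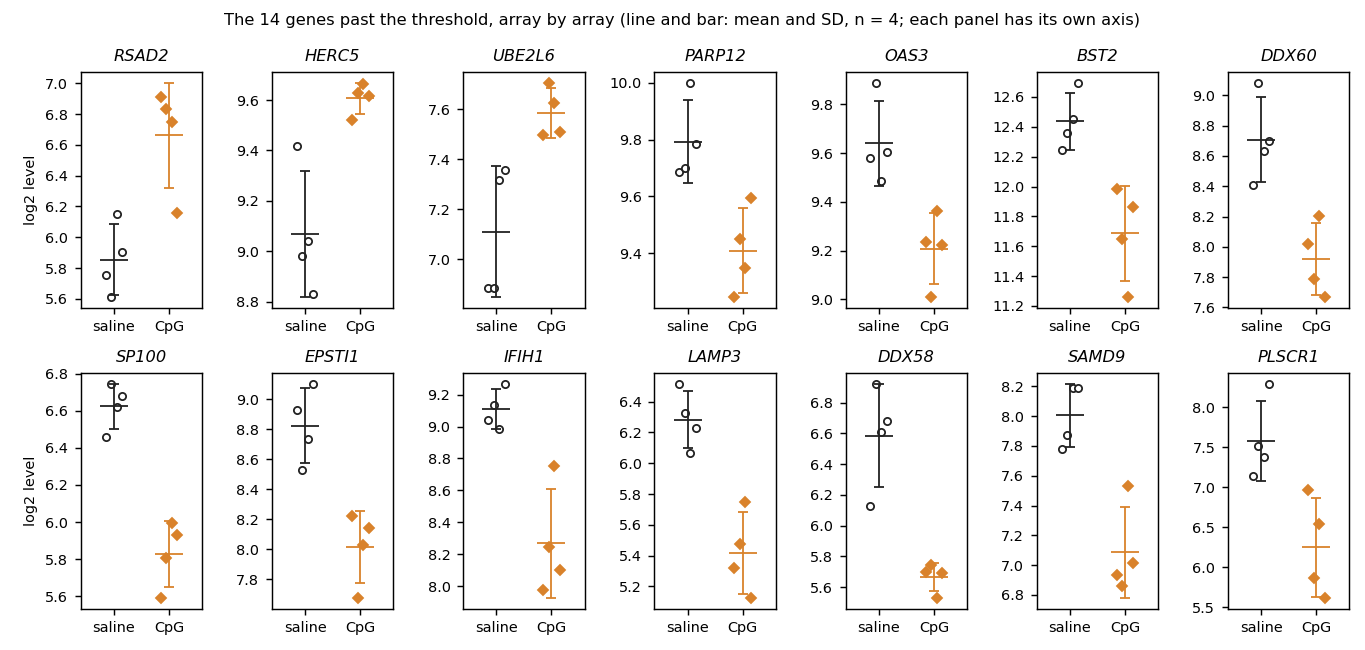
The log2 level of each called gene (y axis, a separate scale in each panel) on the 4 saline arrays (open circles) and the 4 CpG-ODN arrays (diamonds), with lines and bars for the mean and SD. RSAD2, HERC5 and UBE2L6 lie above saline and the other 11 genes below it, with no overlap in any panel.

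The IFITM proteins restrict viral entry at membranes, and 0 of 3 genes of the family were called. IFITM3, with the smallest p-value of the family, stood at 14.84, 14.87, 14.79 and 15.01 in saline and at 14.86, 15.05, 15.11 and 15.02 with CpG-ODN. The groups overlapped and the change was 0.13 ± 0.11 (SE, adjusted p = 0.43). IFITM1 and IFITM2 stood at 0.084 and -0.025. The members of this family are close in sequence, so their probes may share signal, which was not tested. The IFI-named genes, a mixed set of small interferon-induced proteins, likewise had 0 of 4 called. IFI44 stood at 7.26, 7.37, 7.38 and 7.65 in saline and at 7.61, 6.64, 7.20 and 7.10 with CpG-ODN, a change of -0.28 ± 0.19 (SE, adjusted p = 0.325). The groups overlapped, and CpG-ODN replicate 1 lay as high as the saline arrays. IFI6 stood at -0.07 (95% interval -0.53 to 0.39), IFI27 at 0.096 (-0.36 to 0.55) and IFI35 at -0.048 (-0.34 to 0.24). The second probe of IFI6 stood at 0.15 (adjusted p = 0.562).

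PARP9 and the ubiquitin ligase DTX3L form a complex, and PARP12 and PARP14 are ADP-ribosyltransferases of the same superfamily. All 4 genes stood below 0 and 1 of them passed. PARP12 stood at 9.68, 9.70, 10.00 and 9.78 in saline and at 9.24, 9.45, 9.35 and 9.59 with CpG-ODN, a change of -0.38 ± 0.13 (SE, adjusted p = 0.0488). The groups did not overlap, but the call was lost in 13 of 20 alternatives, on leaving out any 1 array except CpG-ODN replicate 4. PARP14 stood at -0.57 ± 0.20 (SE, adjusted p = 0.0662) and passed in 7 of 20 alternatives. DTX3L stood at -0.54 ± 0.21 (SE, adjusted p = 0.0868) and PARP9 at -0.27 ± 0.12 (SE, adjusted p = 0.131), with its second probe at -0.26. DTX3L passed without saline replicate 3 (adjusted p = 0.0232).

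Among the nuclear body and TRIM genes 1 of 4 fell. SP100, a scaffold of PML nuclear bodies, stood at 6.46, 6.74, 6.62 and 6.68 in saline and at 5.59, 5.80, 5.99 and 5.93 with CpG-ODN. With CpG-ODN it was detected on 3 of 4 arrays, and it fell by a log2 change of -0.80 ± 0.13 (SE, adjusted p = 0.00168). A second SP100 probe stood at -1.02 ± 0.15 (SE, adjusted p = 0.00083) and was detected on 1 of the 4 CpG-ODN arrays, so 2 probes of this gene passed in the same direction. SP110, a relative of SP100 in nuclear bodies, had 3 kept probes at -0.13, -0.09 and -0.47, none past the threshold (adjusted p = 0.531, 0.861 and 0.115). TRIM21, a cytosolic antibody receptor, and TRIM22, an antiviral ubiquitin ligase, stood at -0.11 and -0.22.

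Of the remaining 5 genes 3 fell and 0 rose. PLSCR1, a phospholipid scramblase, stood at 7.14, 7.52, 7.38 and 8.30 in saline and at 6.97, 5.87, 6.54 and 5.62 with CpG-ODN. Its change of -1.34 ± 0.32 (SE, adjusted p = 0.0119) was the most negative of the 39 members with this background correction, with a 95% interval from -2.05 to -0.63, and it was detected on 3 of the 4 CpG-ODN arrays. With no background correction the change of PLSCR1 was -0.55, and BST2 (-0.72) and IFIH1 (-0.58) lay lower. Saline replicate 4 was high and CpG-ODN replicate 1 nearly reached the lowest saline array. EPSTI1, a gene named for its induction in epithelial cells by stroma, stood at 8.93, 8.53, 8.73 and 9.10 in saline and at 8.22, 7.67, 8.03 and 8.14 with CpG-ODN. It fell by a log2 change of -0.81 ± 0.17 (SE, adjusted p = 0.00551) with no overlap. LAMP3, a lysosomal membrane glycoprotein of mature dendritic cells that carcinoma cells can express, stood at 6.52, 6.32, 6.07 and 6.23 in saline. With CpG-ODN it stood at 5.32, 5.47, 5.75 and 5.12, not well above background on any array, so it too passed the detection rule only through saline. By the same bound, again a point estimate, LAMP3 was at least 1.41-fold lower on the background-corrected scale. The fit without the floor gave adjusted p = 0.0031 and a 95% interval from -1.22 to -0.51. With no background correction the log2 change of LAMP3 was -0.28. XAF1, a proapoptotic antagonist of XIAP, and LGALS3BP, a secreted galectin-3 ligand, stood at -0.17 and -0.0085.

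**Figure D3:**
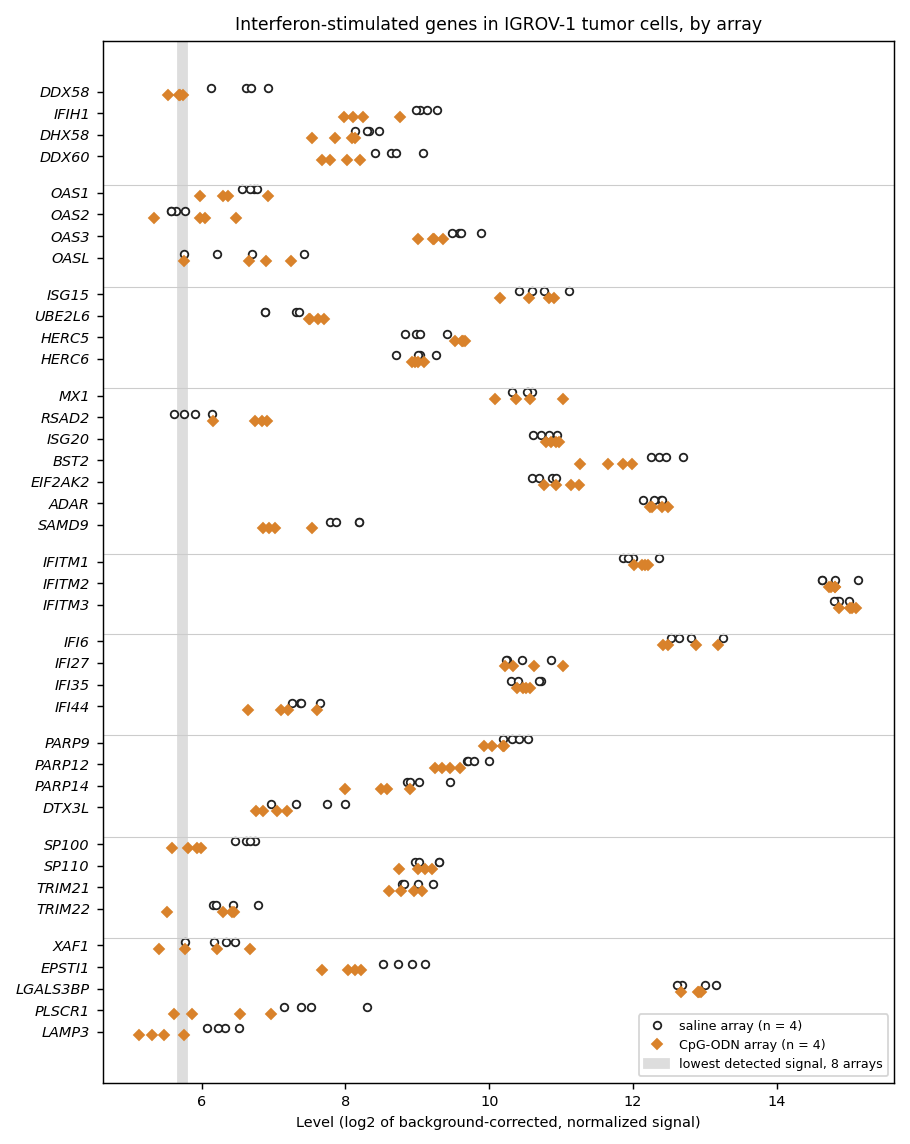
The log2 level (x axis) of each measured gene (y axis, grouped by role) on the 4 saline arrays (open circles) and the 4 CpG-ODN arrays (diamonds), with the range of the lowest detected signal of the 8 arrays shaded. DDX58 and LAMP3 reach that range with CpG-ODN. Levels of different genes come from different probes and are not compared with each other.

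For 16 of the 25 genes that did not pass, the 95% interval of the change, by the brightest probe, lay within 1.5-fold in both directions. They were ISG15, HERC6, MX1, ISG20, EIF2AK2, ADAR, IFITM1, IFITM2, IFITM3, IFI6, IFI27, IFI35, PARP9, SP110, TRIM21 and LGALS3BP. The second probes of ADAR, IFI6 and PARP9 lay within it too, but the other probes of SP110 did not, with intervals from -0.91 to -0.02 and from -0.76 to 0.58. For the other 9 the interval reached past 1.5-fold in at least 1 direction, so these data do not bound their change to that size. All these intervals are from the main normalization. With median scaling over all probes PARP9 stood at -0.41 ± 0.21 and SP110 at -0.33 ± 0.20 (SE), so the bounds depend on the scaling. Of the 14 calls, 10 were kept in every alternative that gave a value for the gene. These were RSAD2, BST2, DDX58, DDX60, EPSTI1, IFIH1, LAMP3, PLSCR1, SAMD9 and SP100. Among them RSAD2, DDX58, LAMP3, PLSCR1 and SP100 had a value in 19 of the 20 alternatives. They had none where only probes detected on every array were tested, so their calls were not tested under that filter.

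Members were set against each other in 6 pairs, which were chosen after their values were seen. The level of the first gene minus that of the second was taken on each array, and the change of this difference was tested by an exact two-sided permutation test over the arrays, whose smallest p is 0.0286. RSAD2 minus IFIH1 changed by 1.65 (exact p = 0.0286, adjusted over the pairs p = 0.0857), and the groups did not overlap. SP100 minus SP110 changed by -0.66 with the same p-values and no overlap. RSAD2 and IFIH1 each separated the groups already, in opposite directions. The p-value and separation of their pair were thus fixed in advance and add no support. SP100 also separated the groups by itself, so the separation of its pair is not independent of that call. For HERC5 minus HERC6 the change was 0.55 (exact p = 0.114, adjusted p = 0.137), and for UBE2L6 minus ISG15 it was 0.58 (exact p = 0.0571, adjusted p = 0.114). IFIH1 minus DHX58 changed by -0.44 (exact p = 0.0857, adjusted p = 0.129) and OAS3 minus OAS1 by -0.15 (exact p = 0.514, adjusted p = 0.514). With this smallest p, a pair could pass 0.05 after adjustment only if at least 4 of the 6 reached it, so the adjusted values do not show whether the genes of a pair responded alike.

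Several members lie next to each other in the order of protein-coding genes of GRCh38.p14. There were 10 adjacent pairs, 6 with both genes measured and 0 with both called. HERC6 and HERC5 stood at -0.012 and 0.54, OAS1 and OAS3 at -0.29 and -0.43, and OAS3 and OAS2 at -0.43 and 0.32. PARP9 and DTX3L stood at -0.27 and -0.54. The IFITM2, IFITM1 and IFITM3 cluster lay between -0.025 and 0.13. RSAD2 lies beside CMPK2 and SAMD9 beside SAMD9L, and neither neighbour had a kept probe.

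The arrays of a group did not give the members the same level. The median within-group SD was 0.24 over the members and 0.21 over all named genes. Saline replicate 1 was the lowest of its group at 18 of 39 members (46.2%), beside 23.8% of all genes, and saline replicate 4 was the highest at 15 (38.5%), beside 24.3% of all genes. CpG-ODN replicate 1 was the highest of its group at 13 members (33.3%), beside 21.7% of all genes. The mean deviation of the members from their group's mean was -0.095 on saline replicate 1, 0.068 on saline replicate 4, 0.087 on CpG-ODN replicate 1 and -0.067 on CpG-ODN replicate 4. IFI6 stood at 12.52, 12.64, 12.80 and 13.26 in saline and at 13.18, 12.41, 12.48 and 12.88 with CpG-ODN. IFI27 stood at 10.46, 10.25, 10.23 and 10.86 in saline and at 11.03, 10.33, 10.62 and 10.21 with CpG-ODN. In all, 9 members (23.1%) were highest on both replicate 4 of the saline group and replicate 1 of the CpG-ODN group, beside 4.69% of all genes, a pair of arrays picked after the values were seen. They were IFI6, IFI27, IFI44, BST2, PLSCR1, EPSTI1, DTX3L, HERC6 and OAS2. Without CpG-ODN replicate 1 the members' median moved from -0.14 to -0.21, and 9 members fell and 2 rose. In that setting 23.9% of all named genes were called, 1508 lower and 1123 higher.

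**Figure D4:**
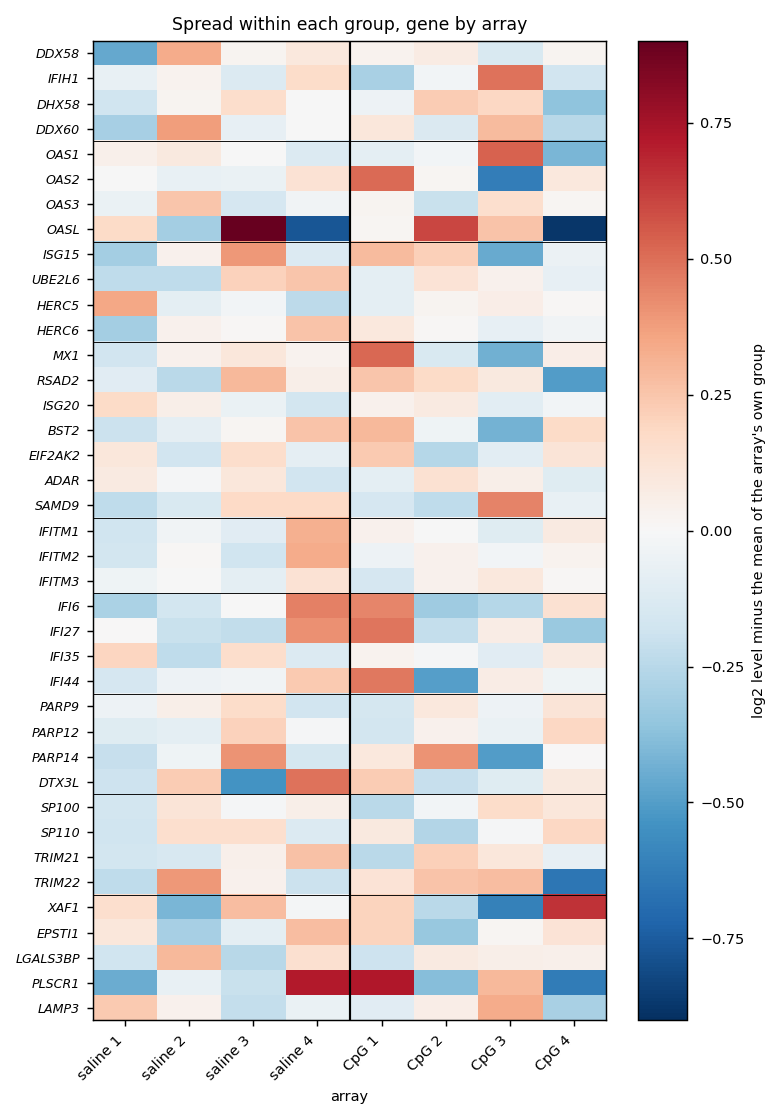
The log2 level of each gene minus the mean of the array's own group (colour scale), by gene (y axis, grouped by role) and array (x axis). IFI6, IFI27, IFI44, BST2, PLSCR1, EPSTI1, DTX3L, HERC6 and OAS2 are each highest of their group on saline replicate 4 and on CpG-ODN replicate 1.

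In the pathway that feeds these genes calls also went both ways, as among all named genes (12.9% higher and 16.3% lower). Of 21 interferon genes 3 were measured, with IFNA10 higher (0.82 ± 0.18 SE, adjusted p = 0.00891) and IFNE, an epithelial interferon, lower (-1.08 ± 0.26 SE, adjusted p = 0.0132). IFNB1 was above background on 0 of 8 arrays. The alpha interferon genes are close copies, so the probe of IFNA10 may share signal with others. Of 6 receptor genes 2 rose and 2 fell (66.7% called, beside 29.2% of all named genes). IFNAR1, a chain of the type I receptor, stood at -1.63 ± 0.17 (SE, adjusted p = 0.000185). The other chain, IFNAR2, stood at 0.59 by the probe named (adjusted p = 0.0313), whereas its dimmer probe passed in the other direction, at -0.58 (adjusted p = 0.0218). IFNGR1 and IFNGR2, the chains of the interferon gamma receptor, stood at 0.72 ± 0.15 and -0.58 ± 0.13 (SE, adjusted p = 0.00599 and 0.00825).

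Of 12 JAK-STAT and IRF genes 10 were measured, with 2 higher and 4 lower (60% called, beside 29.2% of all named genes). IRF9, the DNA-binding subunit of the interferon-activated complex, fell by a log2 change of -0.83 ± 0.12 (SE, adjusted p = 0.00104), and IRF2, a factor that binds the same element, by -0.55 ± 0.13 (SE, adjusted p = 0.013). IRF1, an activator at that element, rose by 0.36 ± 0.11 (SE, adjusted p = 0.0341). JAK1, a kinase of the receptor, rose by 0.68 ± 0.21 (SE, adjusted p = 0.0371) although its groups overlapped and it was detected on 2 of 4 saline arrays. Among 10 negative regulators PIAS2 rose (0.97 ± 0.13 SE, adjusted p = 0.000678), as did a second probe (0.77, adjusted p = 0.0166), while its remaining probe stood at -0.80 (adjusted p = 0.0792), and 0 fell.

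Of 20 nucleic acid sensing genes 16 were measured, with 4 higher and 4 lower (50% called, beside 29.2% of all named genes). The adaptor gene TICAM2, the kinase gene IKBKE and the DNA sensor gene CGAS fell by log2 changes of -1.77 ± 0.19, -1.09 ± 0.15 and -1.03 ± 0.16 (SE, adjusted p = 0.000215, 0.000765 and 0.00129). TBK1, the kinase that activates IRF3, rose by 0.59 ± 0.12 (SE, adjusted p = 0.00505). TLR9 was above background on 0 of 8 arrays. In the IFIT family 2 of 4 measured genes rose, IFIT2 by 1.36 and IFIT3 by 1.40, whereas IFIT1 and IFIT5 stood at 0.13 and 0.30 and did not pass. Of 37 further interferon-induced genes 24 were measured, with 2 higher, 4 lower (25% called) and a median of 0.021. TRIM5, a retroviral restriction factor, fell by a log2 change of -0.94 with its 3 probes called alike, NMI by -0.71 and WARS1 by -0.49. C19orf66, now named SHFL, an inhibitor of viral frameshifting, rose by 0.77 (adjusted p = 0.00201). The other gene of this list that rose was detected on no saline array, so it passed the detection rule through CpG-ODN alone. The remaining gene that fell, GBP1, had overlapping groups by its brightest probe (-0.94, adjusted p = 0.0379). Its dimmer probe stood at -1.33 with no overlap (adjusted p = 0.000495) and was detected on 2 of 4 CpG-ODN arrays.

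**Figure D5:**
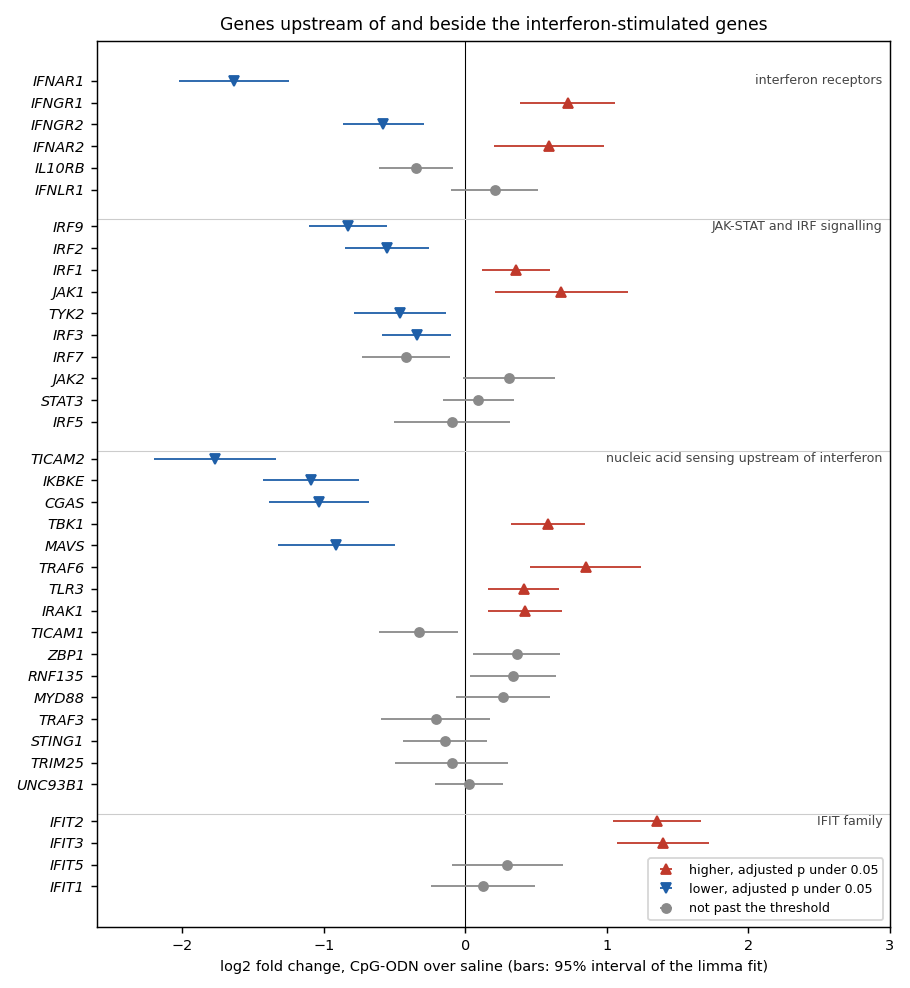
The log2 fold change (x axis) of the measured genes of 4 pathway lists (y axis), with the 95% interval of the limma fit as bars. Triangles show genes past the threshold, and each list except the IFIT family holds called genes in both directions.

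Markers of host or other cells were measured in part, and their part in the results was not tested. Beside the calls below, 29.2% of all named genes were called. The probes are made for human transcripts and the host is the mouse. A marker found or not found here therefore does not show whether mouse cells of that type were present. Of 12 macrophage markers 5 were measured, 2 higher (CD14, CD68) and 1 lower (AIF1), the groups of CD14 overlapping, with a summed signal of 5551 to 7407 in saline and 6987 to 10590 with CpG-ODN. The defining genes CSF1R, CD163 and MRC1 were above background on at most 1 of 8 arrays, and PTPRC, the marker of all white blood cells, on 0 of 8. Of 7 neutrophil markers 2 were measured and 0 called (757 to 1381 and 798 to 1865), and of 11 lymphocyte and natural killer markers 0 were measured. Plasmacytoid dendritic cells are a main source of type I interferon, and of their 5 markers IRF8 and TCF4 were measured, with IRF8 lower (8892 to 11100 in saline and 7036 to 8207 with CpG-ODN). CLEC4C, LILRA4 and IL3RA, their defining markers, were above background on 0 of 8 arrays. Of 7 endothelial markers 4 were measured and VWF and CDH5 rose (833 to 941 and 1097 to 1421). Of 10 fibroblast markers 5 were measured and ACTA2 fell (2059 to 2718 and 1131 to 1344). This sum is mostly ACTA2, and PDGFRA, DCN, FAP and COL1A1 stood at 0.39, 0.45, -0.17 and -0.041 and were not called. Likewise the brightest gene makes up most of the macrophage sum (CD68), the plasmacytoid sum (IRF8) and the mesothelial sum (MSLN). Of 6 mesothelial markers 5 were measured, UPK3B higher and LRRN4 lower (8285 to 9751 and 8571 to 9385), and of 5 erythroid markers 1 was measured with 0 calls (3034 to 10430 and 3016 to 12890). The epithelial and ovarian carcinoma markers summed to 103800 to 116300 in saline and 107300 to 110100 with CpG-ODN, with KRT18 higher and 10 of 11 not called.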

How the data were processed

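RNA of IGROV-1 tumor cells from 8 mouse-grown samples was hybridised to Illumina bead arrays, 4 saline and 4 CpG-ODN. The deposited intensity values are average signals per probe, not normalized per the file headers, each with a deposited detection p-value. The submitters' processing notes name BeadStudio. A second deposited table of intensity values, with no stated normalization, served as an alternative. For background correction and normalization, neqc of limma 3.58.1 was run in R 4.3.3 (detection p-values as background, offset 16, quantile), and log2 levels are of these corrected signals, computed from the deposited intensities. Of 48797 probes 18184 were kept, 14584 with 1 gene, 3 with several and 3597 unnamed here, and names were updated through GRCh38.p14. The groups were set against each other by limma's lmFit and eBayes, treatment being the model's sole factor, and two-sided p-values were adjusted by Benjamini-Hochberg over all kept probes. Tested on simulated data (18184 probes, the arrays' own spread), the fit called 65 of 100 probes given a log2 change of 1, 8 of 100 given 0.5, and 5 unchanged ones. No other probes were changed, far fewer than were called in the data, and the simulated noise was independent between probes. The adjustment therefore acts differently in the data, and these rates do not give the power there. All measured members are given by role: called members and the smallest p-value of a role with no call in every array, up to 4 called genes for each pathway list, and called markers. Also named are GBP1 and some uncalled markers and pathway genes. Members and lists were chosen with earlier results of these data known. Promoter sequences come from RefSeq. Alternatives covered background correction, offset, normalization, the second table, array weights, the detection filter, a robust mean-variance trend, the replicate block, each array left out, and the mean of a gene's probes. Same-numbered arrays of the groups did not deviate together, with correlations of 0.0237, -0.0521, -0.268 and 0.0872, so the numbers were not used as pairs. Which mouse gave which array is not stated, so p-values reflect only how these arrays vary, which may be technical.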

Additional observations from a re-analysis of the deposited data

Results flagged for a closer look

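Of 84 groups of 4 values examined, 3 held an array far from the others, and chance gives about 1 in 20. For TRIM22 in the CpG-ODN group, replicate 4 was low (5.52, against 6.29 to 6.45 on the others), with the gap taking a share of 0.833 of the range. The level of LGALS3BP in the CpG-ODN group was low on replicate 1 (12.67, against 12.90 to 12.94), a share of 0.869. Mean raw signal in saline was high on replicate 1 (1079, against 876 to 906), a share of 0.852. TRIM22 and LGALS3BP were not called.

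A probe of OAS2 that was left out by the detection rule was detected on 3 of the 4 arrays with CpG-ODN and in no saline sample (0 of 4). The kept OAS2 probe was detected on 3 of 4 and 1 of 4.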

How the results depend on the processing

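In 20 alternatives the member genes were given 771 values, of which 723 kept direction and side of the threshold or stayed uncalled, 37 lost a call, 11 gained one and 0 were called in the opposite direction. Lost calls concerned UBE2L6, PARP12 and OAS3, and HERC5 with median scaling. Gained calls concerned PARP14, DTX3L, OAS1 and OAS2. The count of called members ran from 10 to 15 over the alternatives, and the share of all named genes called from 13.3% to 33.7%. With median scaling over all probes the members' median was -0.32, and with each array left out it ran from -0.21 to -0.092. The replicate block gave 11 called members, 9 lower and 2 higher, where 23.4% of all named genes were called. It gave 3954 changed probes, beside 4843 without the block, and the calls of OAS3, PARP12 and UBE2L6 were lost. Sizes depended on the background correction, since with none DDX58 stood at -0.30, LAMP3 at -0.28, SP100 at -0.26, PLSCR1 at -0.55 and RSAD2 at 0.27, all still called. Brighter genes could shrink too, with SAMD9 at -0.47, DDX60 at -0.51 and EPSTI1 at -0.53, whereas BST2 stood at -0.72. The shorter motif AANNGAAA was found in 86.1% of the members' promoters and in 23.2% of all promoters. Named genes split into 1417 higher and 1801 lower, into 486 and 1918 with median scaling over all probes, and into 1824 and 1554 with scaling over kept probes. Signal near background limits the dim members.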
